A study of Drosophila melanogaster with 30 samples.

Results

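The genes described here are the innate immune and humoral stress genes of Drosophila melanogaster: peptidoglycan recognition proteins, antimicrobial peptides, immune-induced molecules and Turandot factors. They were picked by symbol from the TPM tables, and the same 48 genes were found among the 14040 genes of the stage 16 table and the 14077 of the table for the air-filled trachea stage (AFT). They comprise 13 genes for peptidoglycan recognition proteins (PGRP-), 8 for immune-induced molecules (IM), 7 for Turandot factors (Tot), 7 of the Drosomycin family (Drs and Drsl), and 13 for other antimicrobial peptides (Att, Cec, Dpt, Dro, Def and Mtk). The series holds 30 RNA samples of whole embryos, more than 200 embryos per collection, from 5 genotypes at 2 stages with 3 biological replicates each. Every genotype carries 1 copy of elav-Gal4, whose expression is pan-neuronal and mostly postmitotic. In the control that chromosome lies over one from the wild-type OregonR stock, with no UAS transgene. In the col genotype it lies over UAS-col-HA, in the lbe genotype over UAS-myc-lbe, and in col + lbe over UAS-col-HA and UAS-myc-lbe together. The ap + eya embryos carry UAS-Flag-Ap and, over the driver, UAS-eya-HPC4. These transgenes encode the transcription factors collier (listed as kn), ladybird early and apterous and the co-activator eyes absent, which specify neurons. Collier also acts in the larval lymph gland, a blood-forming organ.

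Flies defend themselves with innate immunity alone. Peptidoglycan recognition proteins detect bacterial cell wall fragments and feed the Toll and Imd pathways, or cleave the fragments and so dampen the response. Both pathways drive antimicrobial peptide and immune-induced genes, mainly in the fat body, the insect counterpart of the liver, while Turandot genes answer stress and injury, in part through JAK/STAT signalling.

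Values are in TPM, a transcript abundance scaled for length and to a fixed sum per library. Each table holds 1 column per genotype, the authors' mean of its replicates, so differences carry no SD, no test and no p-value, and the part of 1 library in a mean cannot be seen. The misexpressed genes were high where driven: at AFT kn stood at 12.4 TPM in control embryos, 43.4 with col alone and 104 with both col and lbe. The lbe gene was at 0.0488 TPM in control embryos, 48.9 with lbe alone and 88.0 with both. In ap + eya ap was at 29.8 and eya at 25.7 TPM, in col + lbe at 31.9 and 23.8, and in the control at 3.03 and 2.50. Since kn and lbe were higher in col + lbe than in the single misexpressions, the combination and the level of each factor cannot be told apart. Of the 8 neuron markers, 8 reached the comparison level at each stage, as did 9 of 14 hemocyte markers at stage 16 and 12 at AFT. Of the 10 fat body markers 4 did at each stage, and the storage protein genes Lsp1alpha, Lsp1beta and Lsp2 were under 0.3 TPM in every column. The 10 still summed to between 589 and 813 TPM at stage 16 and between 2418 and 3707 at AFT. In whole embryos, fewer cells of a type and less RNA per cell cannot be told apart. TPM keeps no read depth, so no counting interval can be given. Where 5 values follow one another without names, they stand in the order control, col, lbe, col + lbe and ap + eya. The protocols state 30 to 50 M reads per sample, single reads of 50 bp at stage 16 and paired reads of 150 bp at AFT, so read layout and stage cannot be told apart.

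Many of these genes were nearly silent. Of the 48, 13 stayed under 1 TPM in all 10 columns, another 13 reached between 1 and 5 TPM at most, and 22 reached 5 TPM or more in at least 1 column. The silent ones were AttD, CecA2, CecB, Def, DptA, Drsl1, Drsl3, Drsl6, PGRP-SB2, TotA, TotB, TotM and TotZ, the highest of them CecA2 at 0.922 TPM. At stage 16, 24 of the 48 members reached 1 TPM in a genotype, against 9940 of all 14040 genes. At AFT 23 did, against 10208 of 14077. The share of all genes under 1 TPM in all 10 columns is not given. The 48 genes summed to between 544 and 726 TPM at stage 16. At AFT they summed to between 3066 and 3830 TPM, and without IM33 the 47 others summed to between 274 and 489.

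**Figure D1:**
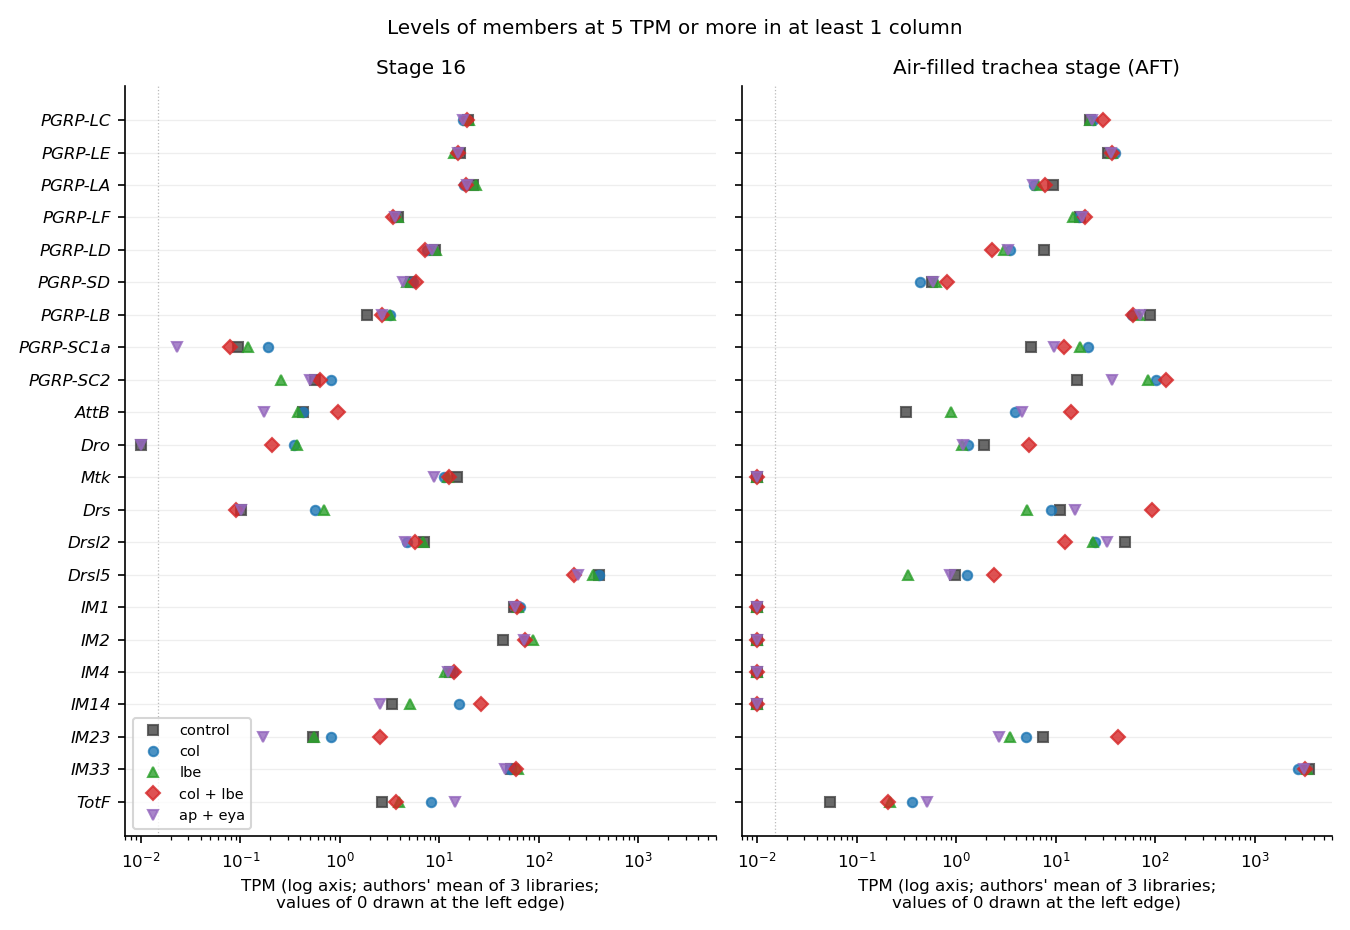
TPM (log axis) of the 22 members that reached 5 TPM in a column, at stage 16 (left) and AFT (right); each point is the authors' mean of 1 genotype, with values of 0 at the left edge. At AFT the col + lbe points stand to the right of the others for AttB, Dro, Drs and IM23, and IM1, IM2, IM4, IM14 and Mtk are listed at 0.

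Members lie close together in the genome. On BDGP6.54, 33 of them fall in 10 groups in which neighbouring members are at most 20 kb apart, and 15 lie alone. The Drsl genes Drsl2, Drsl3, Drsl4, Drsl5, Drsl1 and Drsl6 span 3L:3314349-3336418, and Drs itself (FBgn0283461) lies at 3L:3369556-3369942 on the plus strand. Dro, AttA and AttB span 2R:14745961-14750165, the 4 cecropin genes 3R:30210874-30216938, and PGRP-SC1a, PGRP-SC1b and PGRP-SC2 2R:8709733-8717695. CecA1, CecA2 and CecC carried the same value of 0.922 TPM in col + lbe at AFT, so reads shared by near-identical copies may be split among them, and levels of single Cec, AttA, AttB and PGRP-SC1 genes are uncertain.

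Each misexpression was compared with the control of its stage. Differences are of log2(TPM + 1), a scale that understates the change of low genes, over genes with at least 1 TPM in either group, and genes at least 2-fold apart were counted. All 4 comparisons of a stage share the control mean. At stage 16 few members were 2-fold from the control, at most 2 in a comparison. The share that was higher still exceeded that of all genes in every comparison but lbe. Of 22 compared in col, 2 were higher and 0 lower, where 0.286% of all genes were higher and 0.337% lower. In lbe 0 of 20 were apart, against 0.255% of all genes higher and 0.275% lower. In col + lbe 2 of 21 were higher and 0 lower, against 0.428% and 1.99%, and in ap + eya 1 of 21 was higher and 0 lower, against 0.427% and 1.18%. The median difference of the members lay within 0.18 of that of all genes in these 4 comparisons, at 0.07, 0.12, 0.15 and -0.17 relative to it. The span from the lowest to the highest genotype was counted for members only, so no share of all genes stands beside it. Of the 24 members at 1 TPM or more in a genotype, 21 had their highest and lowest genotype less than 2-fold apart on log2(TPM + 1). By the plain TPM ratio, CecA1 (14.4), TotC (5.11), CecC (3.11), DptB (2.89), PGRP-SB1 (2.58), Drsl4 (2.05) and IM2 (2.02) among them were more than 2-fold apart.

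At AFT the differences were larger and most frequent in col + lbe. There 9 of 22 members were higher and 3 lower, against 3.33% of all genes higher and 4.02% lower, and the members' median was 0.69 relative to all genes. In col 4 of 19 were higher and 0 lower, against 1.91% and 2.37%. In lbe 2 of 18 were higher and 2 lower, against 1.48% and 1.99%, and in ap + eya 3 of 18 were higher and 3 lower, against 1.85% and 2.60%. The members' medians relative to all genes were 0.08, -0.02 and 0.19 in these 3 comparisons. Rescaling the columns by the median ratio shifted the AFT differences by 0.10 (col), 0.13 (lbe), -0.11 (col + lbe) and 0.11 (ap + eya). Then 4 were higher and 0 lower for lbe, 8 and 3 for col + lbe, and 3 and 2 for ap + eya. With a pseudocount of 5 TPM, 5 members were apart for col + lbe and 0 for ap + eya. Set against the median of the other 4 genotypes in place of the control, 0 were apart for col. The shares of all genes given above hold without these changes, and none are given under them.

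**Figure D2:**
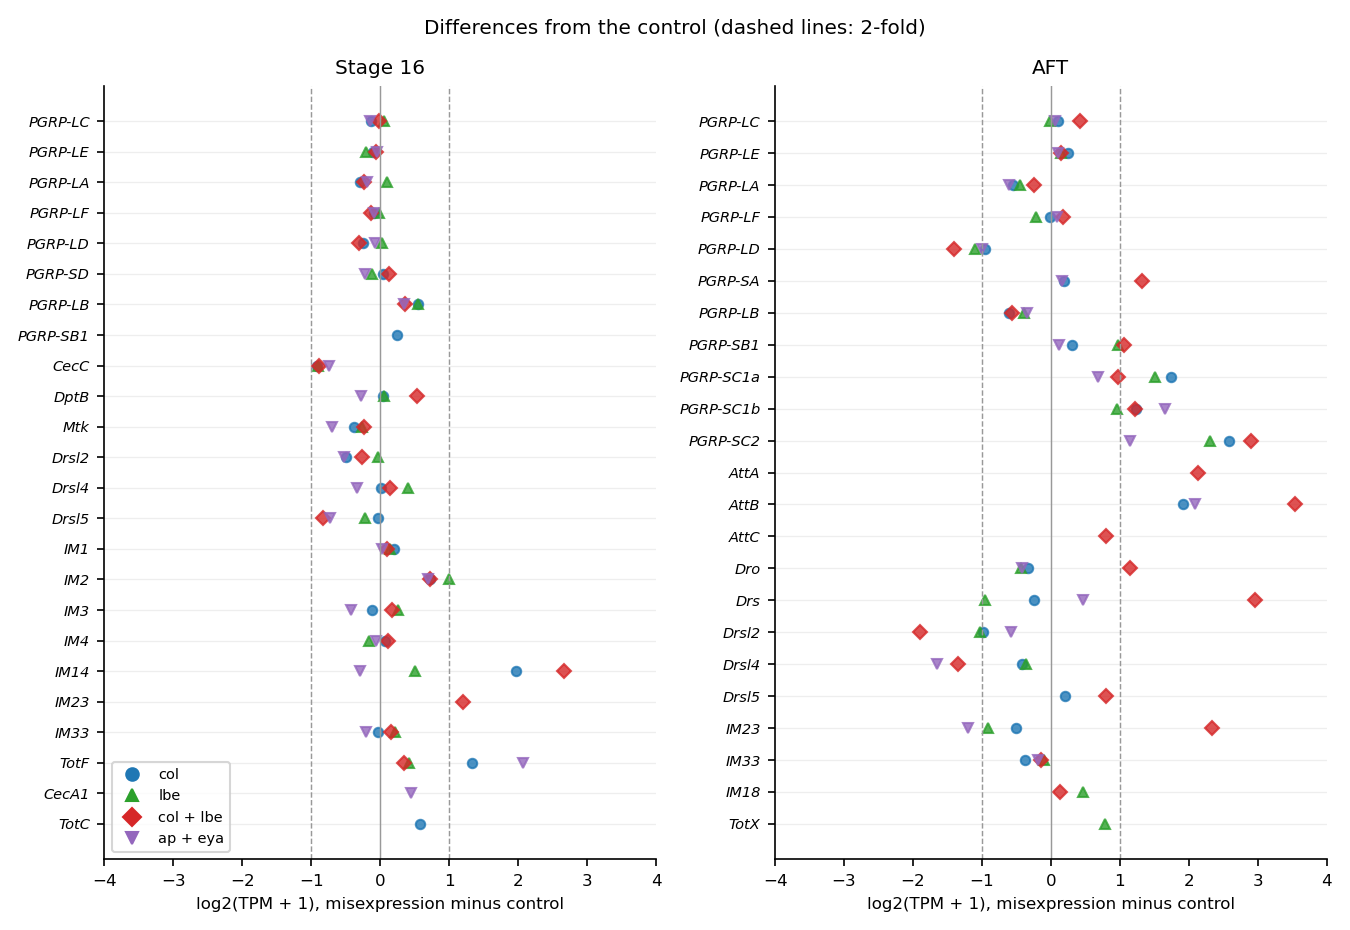
Difference of log2(TPM + 1) between each misexpression and the control for the members compared, at stage 16 (left) and AFT (right); each point is 1 comparison and the dashed lines mark 2-fold. At stage 16 only IM14, IM23 and TotF pass the lines, and at AFT the col + lbe points of AttB (3.55), Drs (2.96), PGRP-SC2 (2.90) and IM23 (2.34) lie farthest to the right.

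The Imd receptors PGRP-LC and PGRP-LE were steady across the genotypes of a stage. PGRP-LC, the membrane receptor of the Imd pathway, was at 19.2 TPM in control embryos, 17.4 with col, 19.9 with lbe, 19.0 with both col and lbe and 17.3 with ap + eya at stage 16, and at 22.3, 24.0, 22.1, 30.2 and 23.4 TPM in the same order at AFT. PGRP-LE, the intracellular Imd sensor, was at 16.1, 15.0, 13.9, 15.5 and 15.5 TPM at stage 16 and at 33.3, 39.9, 37.1, 36.9 and 35.8 TPM at AFT. No genotype was 2-fold from the control for either gene. PGRP-LF, which restrains PGRP-LC, was at 3.88, 3.61, 3.85, 3.43 and 3.58 TPM at stage 16 and at 17.5, 17.2, 14.9, 19.9 and 18.6 TPM at AFT. PGRP-LA, at 3L:9334332-9338336 beside PGRP-LC and PGRP-LF, was at 21.8, 17.7, 23.3, 18.4 and 19.0 TPM at stage 16 and at 9.43, 6.11, 6.64, 7.76 and 5.87 TPM at AFT. Across the tables all 5 genotypes of PGRP-LE and PGRP-LF were at least 2-fold higher at AFT and all 5 of PGRP-LA lower.

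PGRP-LD was lower in the misexpressions at AFT. It stood at 7.64 TPM in control embryos, 3.45 with col, 3.05 with lbe, 2.28 with both and 3.30 with ap + eya, so the control was above all 4 others. The log2 differences were -0.96, -1.09, -1.40 and -1.01, and after median-ratio rescaling only that of col + lbe passed 2-fold. At stage 16 it was at 9.03, 7.43, 9.23, 7.12 and 8.49 TPM, with the control not set apart. The secreted PGRP-SA, which signals to Toll, was at 0.995 TPM in control embryos, 1.28 with col, 0.966 with lbe, 3.99 with both and 1.24 with ap + eya at AFT, so col + lbe stood alone (1.32 from the control). PGRP-SD, another secreted recognition protein, was at 5.24, 5.4, 4.73, 5.85 and 4.34 TPM at stage 16 and at 0.575, 0.431, 0.632, 0.814 and 0.589 TPM at AFT.

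The amidases, enzymes that cleave peptidoglycan and so quench the signal, differed by gene. PGRP-SC2 was at 16.3 TPM in control embryos, 103 with col, 84.8 with lbe, 128 with both and 37.2 with ap + eya at AFT. The control was lowest, and PGRP-SC2 was the only member of 23 in which the control lay at least 2-fold below each of the other 4 genotypes, as 0.803% of all genes did. The differences were 2.59, 2.31, 2.90 and 1.15 in the same order, and that of ap + eya was -1.31 when set against the median of the other 4 genotypes. Its neighbours PGRP-SC1a and PGRP-SC1b, summed because they may share reads, were at 6.39 TPM in control embryos, 24.3 with col, 20.2 with lbe, 15.2 with both and 14.3 with ap + eya. Again the control was lowest, with differences between 1.05 and 1.77. PGRP-SC1a alone was at 5.62, 21.1, 17.8, 12.0 and 9.67 TPM. All 3 PGRP-SC genes were under 1 TPM at stage 16, where PGRP-SC1a was at 0.0952, 0.189, 0.120, 0.0791 and 0.0233 TPM and PGRP-SC2 at 0.559, 0.821, 0.259, 0.633 and 0.505 TPM.

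PGRP-SB1 was at 1.35 TPM in control embryos, 1.91 with col, 3.63 with lbe, 3.92 with both and 1.54 with ap + eya at AFT; its difference of 1.07 in col + lbe was under 2-fold after rescaling. For PGRP-LB the control was the highest genotype, with 89.7 TPM in control embryos, 58.4 with col, 68.4 with lbe, 60.1 with both and 70.5 with ap + eya, none of them 2-fold apart. At stage 16 PGRP-LB was at 1.87, 3.19, 3.18, 2.68 and 2.66 TPM, the control again at the end of the range, here the lowest.

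The digestive enzyme markers, summed, were also lowest in the control at AFT. The 18 gut enzyme markers summed to 1599.8 TPM in control embryos, 6086 with col, 4022 with lbe, 8884 with both and 5243 with ap + eya. Of 15 compared, 11, 10, 13 and 11 were 2-fold higher in the 4 misexpressions and none lower. Of all genes 1.91%, 1.48%, 3.33% and 1.85% were higher, and LysC was listed at 0. Cuticle genes were lower: 18 of them summed to 3771 TPM in control embryos and to between 1295 and 1807 in the misexpressions. In the same order 14, 6, 13 and 12 of 18 were lower, against 2.37%, 1.99%, 4.02% and 2.60% of all genes. The part of either list in the PGRP-SC and PGRP-LD differences was not tested.

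Among the antimicrobial peptides, col + lbe stood apart at AFT. Drs encodes drosomycin, an antifungal peptide that is a standard readout of Toll signalling. It was at 11.0 TPM in control embryos, 9.09 with col, 5.21 with lbe, 92.4 with both and 15.5 with ap + eya. The single misexpressions of col and lbe lay below the control and their combination far above (2.96). The col + lbe level exceeded the highest of the other 4 genotypes by 2.50 and, on the log2 scale, the sum of the separate col and lbe differences by 4.16. At stage 16 Drs was under 1 TPM throughout, at 0.101, 0.564, 0.688, 0.0910 and 0.10 TPM.

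AttB, an attacin directed at Gram-negative bacteria, was at 0.313 TPM in control embryos, 3.95 with col, 0.892 with lbe, 14.3 with both and 4.57 with ap + eya at AFT. The control was lowest and col + lbe highest (3.55), with col (1.91) and ap + eya (2.08) between. At stage 16 AttB was at 0.429, 0.429, 0.378, 0.957 and 0.172 TPM. AttA and AttB, which may share reads, summed at AFT to 0.526 TPM in control embryos, 4.34 with col, 1.03 with lbe, 18.6 with both and 5.54 with ap + eya. AttC at AFT was at 1.07 TPM in col + lbe and at most 0.182 in the others. Dro, for the peptide drosocin, lies next to AttA and AttB. Its AFT values were 1.91 TPM in control embryos, 1.33 with col, 1.16 with lbe, 5.47 with both and 1.19 with ap + eya, so col + lbe was again alone (1.15). At stage 16 Dro was at 0, 0.346, 0.370, 0.210 and 0 TPM.

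The cecropin genes summed to 2.76 TPM in col + lbe at AFT and 0.390 in ap + eya, and were listed at 0 in the other 3 genotypes. At stage 16 they summed to 3.21 TPM in control embryos, 1.06 with col, 1.18 with lbe, 1.10 with both and 2.34 with ap + eya. DptB, a diptericin gene, was between 0.666 and 1.92 TPM at stage 16 and between 0.283 and 0.865 at AFT. Col + lbe was the lowest of the AFT values, so DptB did not share the order of Drs. Mtk, for the antifungal peptide metchnikowin, was at 14.9 TPM in control embryos, 11.2 with col, 12.3 with lbe, 12.6 with both and 8.79 with ap + eya at stage 16, none 2-fold apart, and listed at 0 in every AFT column.

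The relatives of drosomycin differed from Drs and from each other. Drsl2 was at 49.6 TPM in control embryos, 24.7 with col, 23.8 with lbe, 12.6 with both and 33.0 with ap + eya at AFT, so col + lbe, the highest genotype for Drs, was the lowest for Drsl2 (-1.90). At stage 16 Drsl2 was at 7.03, 4.70, 6.82, 5.71 and 4.55 TPM. At AFT Drsl4 was at 2.96 TPM in control embryos, 1.96 with col, 2.08 with lbe, 0.556 with both and 0.261 with ap + eya, lowest in both double misexpressions. Its stage 16 values were 2.54, 2.57, 3.69, 2.89 and 1.80 TPM, where ap + eya was lowest but col + lbe lay above the control. Drsl5 was the most abundant peptide gene at stage 16, with 406 TPM in control embryos, 398 with col, 349 with lbe, 228 with both and 246 with ap + eya. Both double misexpressions were lowest there (-0.83 and -0.72), short of 2-fold. Of 17 cuticle markers compared at stage 16, 8 were lower in col + lbe and 8 in ap + eya, against 1.99% and 1.18% of all genes. In col and lbe 0 were lower, against 0.337% and 0.275%. The part of the cuticle genes in the Drsl5 levels was not tested. At AFT Drsl5 was at 0.969, 1.28, 0.326, 2.43 and 0.874 TPM, highest in col + lbe but not 2-fold above the control (0.80).

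Immune-induced molecules were first known as small peptides that appear in the blood after infection; IM1, IM2, IM3 and IM23 are now named BomS1, BomS2, BomS3 and BomBc1, for the Bomanins, which act downstream of Toll, and IM4 and IM14 are Dso1 and Dso2. IM23 was at 7.48 TPM in control embryos, 5.00 with col, 3.51 with lbe, 42.0 with both and 2.69 with ap + eya at AFT. It had the order of Drs in that both single misexpressions of col and lbe lay below the control and col + lbe above all others (2.34). Median differences of all genes from the control had the same signs there, though small, at -0.10 in col, -0.13 in lbe and 0.11 in col + lbe. At stage 16 IM23 was lower throughout but again highest in col + lbe, at 0.540, 0.820, 0.555, 2.55 and 0.170 TPM (1.20 for col + lbe against the control).

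IM14 gave the largest difference among the members at stage 16. It was at 3.32 TPM in control embryos, 15.9 with col, 5.11 with lbe, 26.5 with both and 2.53 with ap + eya. The genotypes with the col transgene were the 2 highest (1.97 and 2.67 from the control). IM4, its neighbour at 2R:20868496-20869321, was at 12.9, 13.6, 11.5, 14.0 and 12.3 TPM, so the genes of that pair differed. IM1 was at 55.7, 64.0, 61.5, 60.0 and 56.9 TPM, none 2-fold apart. IM2 was at 43.7, 72.5, 88.2, 72.7 and 71.7 TPM, lowest in the control and just short of 2-fold in lbe (0.99) on the scale used. IM3 was between 2.38 and 4.44 TPM. IM33 was at 52.9, 51.8, 61.3, 59.2 and 45.8 TPM at stage 16 and far higher in the other table, at 3547 TPM in control embryos, 2737 with col, 3326 with lbe, 3205 with both and 3116 with ap + eya at AFT. IM18 reached 1.57 TPM at most, in lbe at AFT.

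The Bomanin cluster held further genes from the list of other effectors. On 2R:18382704-18390629 lie 8 of these genes, 4 of them members; the 4 others are CG15067 (BomBc2), CG16836 (BomT2), CG15065 (BomS5) and CG15068 (BomS6), grouped here after their values were seen. At AFT 5 of the 8 were listed at 0 in all columns, as were 627 of all 14077 genes. The 3 above 0 were all highest in col + lbe, as were 50.5% of all genes at 1 TPM or more. CG15067 was at 0.43 TPM in control embryos, 0.804 with col, 0.341 with lbe, 13.2 with both and 1.42 with ap + eya (3.31 for col + lbe). CG16836 was at 0.655, 2.37, 2.40, 6.05 and 1.10 TPM in the same order (2.09). At stage 16 CG15067 was at 1.69 TPM in control embryos and 6.87 in col + lbe (1.55), and CG15065 at 1.93 and 5.56 (1.16).

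Of the whole set, 6 of the 23 members at 1 TPM or more at AFT were at least 2-fold higher in col + lbe than in each of the other 4 genotypes, as were 0.921% of all genes. These were AttA, AttB, Dro, Drs, IM23 and PGRP-SA. No member was 2-fold lower there than in each of the others, as were 0.147% of all genes, and at stage 16 0 of 24 were higher or lower, against 0.0805% and 0.131%. Col + lbe held the highest value in 12 of the 23 members and in 50.5% of all genes at AFT.

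**Figure D3:**
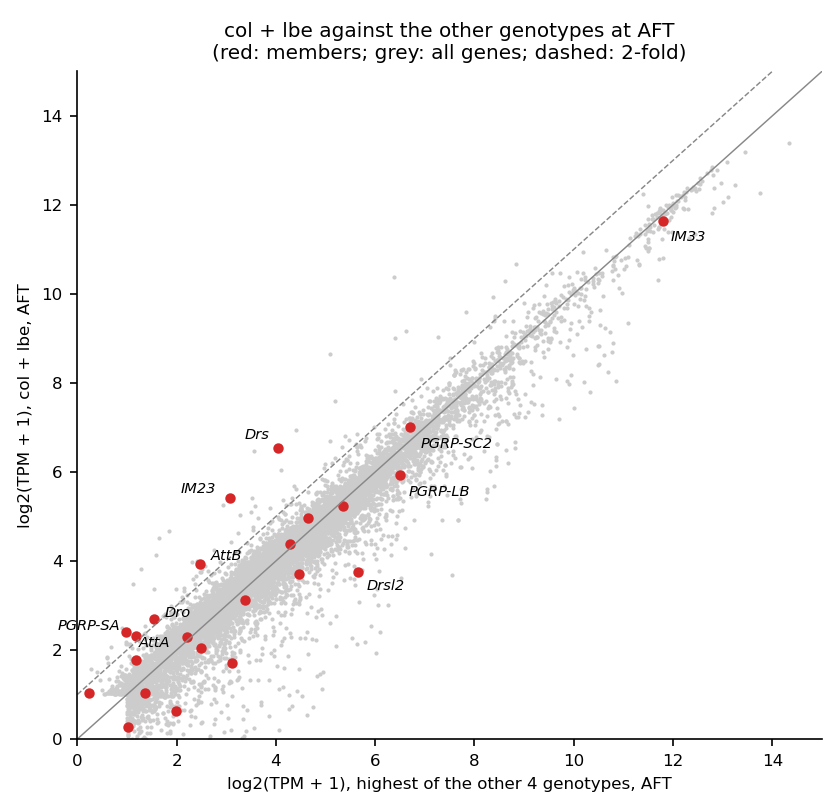
log2(TPM + 1) in col + lbe at AFT (vertical) against the highest of the other 4 genotypes (horizontal) for all genes (grey) and members (red); the solid line marks equality and the dashed line 2-fold. Drs (2.50 above the highest other) and IM23 (2.34) lie farthest above the dashed line, with AttB, AttA, Dro and PGRP-SA nearer to it.

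The hemocyte and fat body markers, as sums, were not highest in col + lbe at AFT. The 14 hemocyte markers summed to 1227 TPM in control embryos and to 909.8 in col + lbe, the lowest of the 5. Of the 12 compared none was 2-fold apart in any comparison, against 1.48% to 4.02% of all genes in a direction. Most of the hemocyte sum came from the matrix genes Col4a1 and vkg, at 515 and 261 TPM in col + lbe and 718 and 371 in the control. The list's genes He, crq and drpr were instead highest in col + lbe, as were 50.5% of all genes. He was at 3.62, 5.44, 6.86, 7.01 and 5.67 TPM, crq at 15.6 against 11.7 in the control and drpr at 27.9 against 27.7. The median difference of the hemocyte list in col + lbe was 0.02, against 0.11 for all genes. The part of these markers in the levels of Drs, AttB and IM23 was not tested. The 10 fat body markers summed to 2418 TPM in control embryos, 3707 with col, 3100.4 with lbe, 2590.4 with both and 2692 with ap + eya, and none of the 4 compared was 2-fold apart. The gut enzyme sum given above was highest in col + lbe, as were Drs, AttB and IM23; its part in their levels was not tested.

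The Turandot genes, stress-induced secreted factors, were low with 1 exception. TotF (2L:19911815-19912377, minus strand) was at 2.67 TPM in control embryos, 8.20 with col, 3.92 with lbe, 3.66 with both and 14.4 with ap + eya at stage 16. The ap + eya (2.07) and col (1.33) embryos were the 2 highest, and col + lbe, which carries the same col transgene, was not 2-fold apart (0.35). TotC reached 1.12 TPM in col at stage 16 and TotX 1.04 in lbe at AFT. The other 4 Turandot genes stayed under 1 TPM, and TotF was at 0.0546, 0.364, 0.215, 0.208 and 0.508 TPM at AFT. At stage 16 Prx2540-1, a peroxiredoxin gene, was also highest in ap + eya, at 353 TPM against 130.1 in the control (1.43).

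The genes that carry the signals were apart about as seldom as all genes. The Toll, Imd, JAK/STAT and JNK lists held 50 genes with enough signal, of which 0 were 2-fold apart at stage 16 in any comparison, where 0.255% to 1.99% of all genes were apart in a direction. At AFT 1 was higher and 1 lower in col + lbe, against 3.33% and 4.02% of all genes. In each of the other 3 comparisons 0 were higher and 1 lower, against 1.48% to 1.91% and 1.99% to 2.60%. The one higher was GNBP3, a sensor of fungal cell walls that acts on Toll, at 7.84 TPM in control embryos, 14.1 with col, 12.8 with lbe, 24.8 with both and 12.4 with ap + eya (1.54). The Toll list had medians from -0.16 to 0.09 relative to all genes at AFT, the Imd list from 0.09 to 0.16, the JAK/STAT list from -0.18 to 0.04 and the JNK list from -0.15 to -0.03. At stage 16 the medians of these lists lay between -0.04 and 0.07. Rel, the transcription factor of the Imd pathway, was at 36.6 TPM in control embryos and 63.1 in col + lbe at AFT (0.77). The cytokine gene upd3, a ligand of JAK/STAT, was at 1.95 TPM in control embryos at AFT and between 0.250 and 0.599 in the misexpressions. On log2(TPM + 1) upd3 was 2-fold lower in all but col + lbe, which stood at 0.599 TPM (-0.88). That scale understates the change at such low levels. The gene was named after its values were seen. Of the JNK list, Mmp1, a matrix protease gene, was lower in col + lbe at AFT (64.3 TPM in the control against 30.2, -1.07).

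Of the remaining defence lists, the other effectors held the most differences. Of 10 melanization genes compared 0 were apart at stage 16, against 0.255% to 1.99% of all genes in a direction. In each AFT comparison 1 was lower, against 1.99% to 4.02% of all genes. It was Ddc, which also acts in cuticle tanning, at 80.1 TPM in control embryos and between 27.7 and 34.1 in the misexpressions. The medians of that list lay from -0.19 to -0.06 relative to all genes at AFT and from -0.12 to 0.09 at stage 16. PPO1 and PPO2, prophenoloxidase genes of crystal cells, were at 98.0 to 110.4 and 124 to 157 TPM at stage 16 and at 0.473 or less and 5.65 or less at AFT. Of 10 redox genes compared, 0 were lower at stage 16 and 1, Prx2540-1, higher, in ap + eya, against 0.427% of all genes. At AFT GstD2, a glutathione transferase gene, was higher in col (1.39), lbe (1.01) and ap + eya (2.26), and Prx2540-2 was lower in ap + eya (-1.19). Of all genes 1.91%, 1.48% and 1.85% were higher in these 3 comparisons, and 2.60% were lower in ap + eya. The medians of the redox list lay from 0.05 to 0.11 at AFT and from -0.11 to 0.07 at stage 16. In the list of other effectors, 15 genes were in both tables and 8 to 10 were compared, with medians from -0.14 to 0.43 at AFT and from 0.01 to 0.26 at stage 16. At stage 16, 2 of them were higher with both col and lbe, 1 with ap + eya and 0 with col or lbe alone, and 0 were lower; the 2 were of 8 compared, against 0.428% of all genes. At AFT 1 was higher and 1 lower with col, 1 and 0 with lbe, 3 and 0 with both, and 0 and 2 with ap + eya; the 3 were of 10 compared, against 3.33% of all genes. Anp, for the peptide andropin, was at 6.00 TPM in ap + eya at stage 16 and at 0.910 in the control (1.87). CG33470 (BaraA1) was at 48.6 TPM in control embryos, 29.7 with col, 25.3 with lbe, 93.3 with both and 18.3 with ap + eya at AFT. As for Drs and IM23, col and lbe lay below the control and col + lbe above it (0.93). The median differences of all genes had the same signs, at -0.10 in col, -0.13 in lbe and 0.11 in col + lbe. Listericin was at 1.17 TPM in control embryos and 3.64 in col + lbe (1.09), and was likewise named after its values were seen.

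Between the stages the members differed in both directions. These levels are set across 2 separately made tables. In the control 10 of 26 members compared were at least 2-fold higher at AFT and 11 lower, against 19.0% and 24.8% of all genes. In col 11 of 29 were higher and 10 lower, against 19.1% and 25.8%, and in lbe 12 of 28 and 11, against 18.6% and 26.9%. In col + lbe 16 of 31 were higher and 13 lower, against 20.6% and 20.0%, and in ap + eya 12 of 28 and 13, against 18.3% and 28.5%. In the control, higher at AFT were IM33 (6.04), PGRP-LB (4.98), PGRP-SC2 (3.47), Drs (3.45), Drsl2 (2.66) and IM23 (2.46), among others. Lower were Drsl5 (-7.69), PGRP-SD (-1.99), TotF (-1.80) and PGRP-LA (-1.13), and the others counted as lower were listed at 0 in the control at AFT. Without genes listed at 0 in either column, 9 of 18 members were higher and 4 lower in the control, against 18.8% and 24.4% of all genes, so the lower count was then near the share of all genes. The lower counts on that basis were 4 of 23 for col, 5 of 22 for lbe, 7 of 25 for col + lbe and 6 of 20 for ap + eya, against 25.3%, 26.4%, 19.5% and 28.0%. The higher counts were 11, 12, 16 and 11, against 18.9%, 18.5%, 20.5% and 18.1%.

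**Figure D4:**
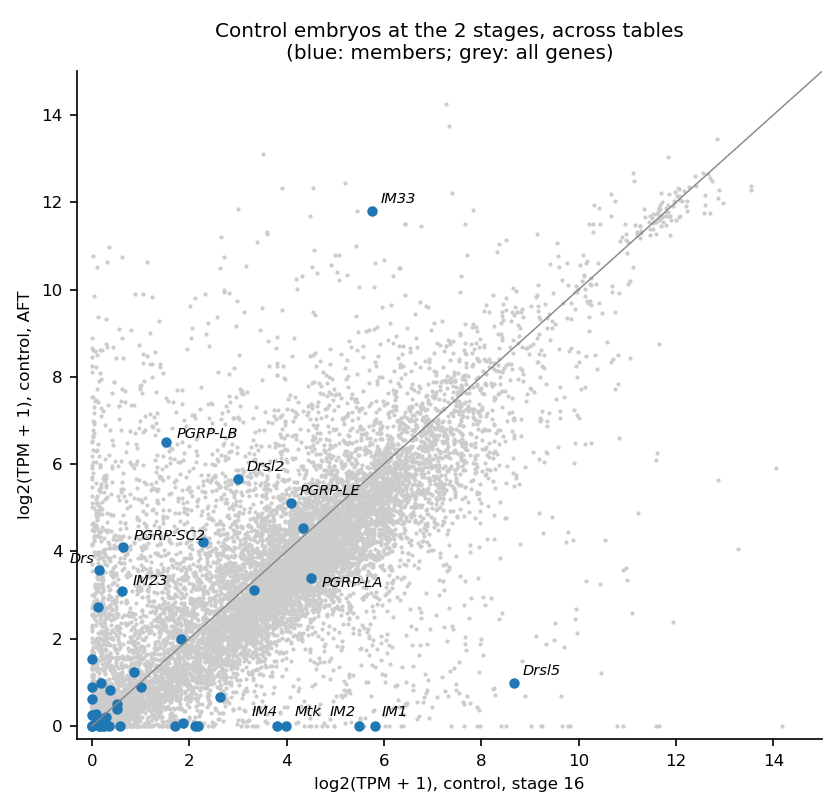
log2(TPM + 1) of control embryos at AFT (vertical) against stage 16 (horizontal), across the 2 tables, for all genes (grey) and members (blue), with the line of equality. IM33 and PGRP-LB lie far above the line, Drsl5 far below it, and IM1, IM2, IM4 and Mtk on the bottom edge, at 0.

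Some members had no signal in one table. At AFT 9 of 48 members were listed at 0 in all 5 columns, as were 627 of all 14077 genes. They were CecB, Drsl3, IM1, IM2, IM3, IM4, IM14, Mtk and TotB. At stage 16 no member was at 0 in every column (0 of 48), against 300 of all 14040 genes. Of the 18 members at 1 TPM or more in every stage 16 column, 6 were at 0 throughout AFT, as were 0.553% of all genes (52 of 9405). They included IM2, at 43.7 to 88.2 TPM at stage 16. The share of such genes was highest among short transcripts, with 57.1% of genes whose longest annotated transcript is under 300 bases and 9.84% between 300 and 399 bases, against 0.272% at 1500 bases or more. IM14 (223 bases), Mtk (268), IM1 (361) and IM2 (367) are short, and IM3 and IM4 have transcripts of 301 and 418 bases beside longer ones. However, Drsl2 (333 bases), IM33 (359 and 381) and Drs (387) are as short and had values at AFT. Whether transcript length or the change of read layout set the zeros was not tested, and the counts between stages are therefore also given above without these genes.

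**Figure D5:**
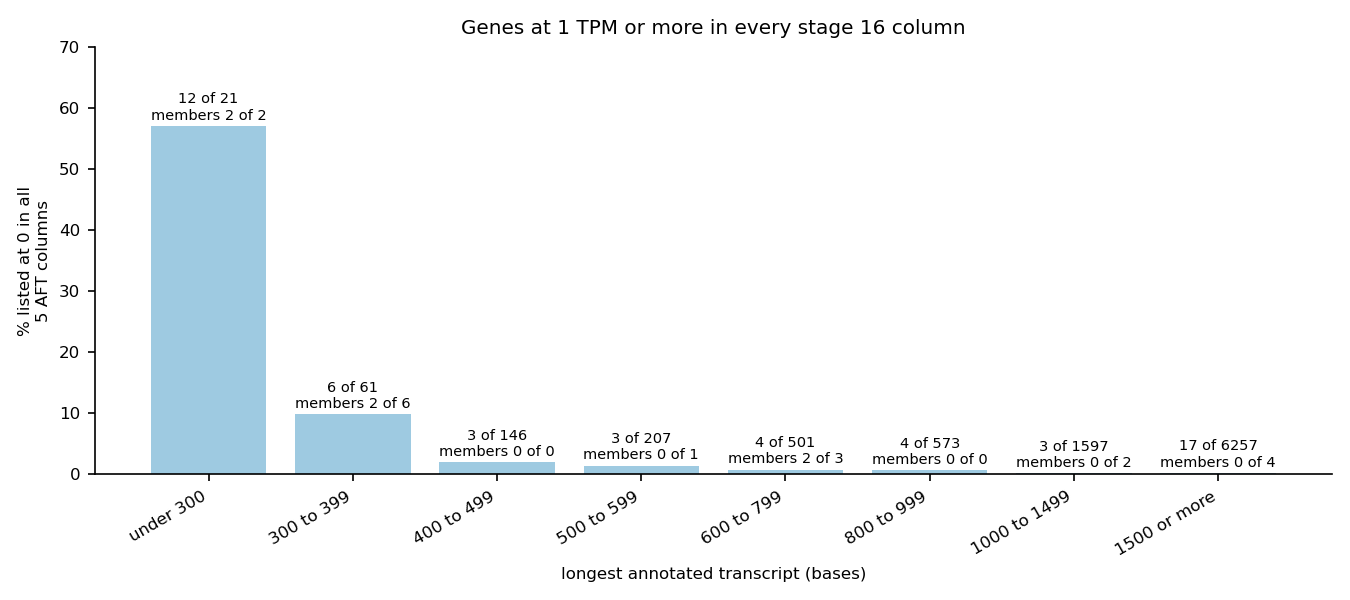
Share of genes (vertical, %) listed at 0 in all 5 AFT columns among genes at 1 TPM or more in every stage 16 column, by the length of the longest annotated transcript (horizontal, bases); numbers above the bars give genes and, of them, members. The share is lower in longer genes, from 57.1% under 300 bases to 0.272% at 1500 bases or more.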

How the data were processed

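The tool kallisto 0.43.1 and the build BDGP6 are named per the submitters' processing notes. The deposited TPM columns, 1 per genotype and stage, are the authors' means: multiplied by 3, 56.2% of values between 10 and 100 TPM at stage 16 and 54.5% at AFT were whole in the 4th decimal within 0.02, against 19.9% to 28.0% for factors of 1, 2, 4 and 5. The sources used here do not give how transcript values became gene values. A limma fit across libraries was planned if single libraries were found and could not be made. Computed here were differences of log2(TPM + 1), a pseudocount of 1 TPM, over genes with at least 1 TPM in either group. Members with at least 5 TPM in a column were described in every genotype, and of other lists up to 4 genes with at least 5 TPM and the largest differences, apart from those marked. The members and lists were chosen with earlier results of these data known. Of 48 symbols, 42 matched the BDGP6.54 annotation directly and 6 through RefSeq synonyms. Counting was tested on simulated data. Python 3.11.15, pandas 2.3.3, numpy 2.4.6 and matplotlib 3.10.9 were used.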

Additional observations from a re-analysis of the deposited data

How the results depend on the processing

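Counts of members at least 2-fold apart depended on the pseudocount and on the other choices below. No shares of all genes are given under these alternatives, apart from those given above without genes listed at 0. The counts below therefore do not show how far all genes moved. With 0.1 TPM, 4 members were apart in col, 2 in lbe and 2 in ap + eya at stage 16, and 9 in lbe at AFT. With 5 TPM, 1 was apart in col and 1 in col + lbe at stage 16, and at AFT 2 (col), 2 (lbe), 5 (col + lbe) and 0 (ap + eya). With a filter of 5 TPM, 1 was apart in col + lbe at stage 16, and at AFT 2 in col, 7 in col + lbe and 3 in ap + eya. Median-ratio rescaling gave 1 in lbe at stage 16, IM2. With the median of the other 4 genotypes as the reference, 1 was apart in col and 2 in ap + eya at stage 16, and at AFT 0 in col, 2 in lbe and 2 in ap + eya. Under that reference 2 AFT differences of ap + eya reversed, PGRP-LD to 0.0183 and PGRP-SC2 to -1.31. After the data were seen, a threshold of 3-fold was added, which left 1 in col and 1 in col + lbe at stage 16, and 1 (lbe), 6 (col + lbe) and 3 (ap + eya) at AFT. The plain TPM ratio, also added, gave 4 in col, 2 in lbe and 3 in ap + eya at stage 16, and 9 in lbe at AFT. Other counts against the control stayed within 1.5 times; the cause of the differences was not tested. In col + lbe at AFT, AttB, Drs, IM23 and PGRP-SC2 (higher) and Drsl2 (lower) were apart under all 8 alternatives. Leaving out genes listed at 0 in either column, also added, gave 4 members lower at AFT than at stage 16 for the control, 4 (col), 5 (lbe), 7 (col + lbe) and 6 (ap + eya). No paired analysis was possible because each group has 1 mean column, and for the same reason no replicate could be left out.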
